A study of Mus musculus with 4 samples.

Results

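Gm15056 and Gm36988 are a pair of mouse genes that still carried model names in the deposited table, and their transcript levels were described here in leukocytes of mammary tumors from 2 genotypes. They were 2 of 32285 genes in the table, and they were chosen by their UMI levels between the genotypes in these same tumors (a UMI is a unique molecular identifier, the tag that marks 1 captured transcript). Their levels between genotypes are therefore given as a description, with no test. Both genes were found in the table. Levels were read from the raw UMI counts with no filter on low values. The filter used for the tests of other genes would have kept Gm15056 over all cells and in the gates of mononuclear phagocytes, and Gm36988 over all cells alone.

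Single-cell RNA sequencing was done on viable CD45+ cells sorted from EO771 tumors, a transplanted mouse mammary carcinoma, which were grown in the mammary gland of female C57BL/6 mice to 1.5 cm3. Tumors came from Csf1rfl/fl mice, whose Csf1r alleles are flanked by loxP sites but intact without a recombinase, and from Lyve1CreCsf1rfl/fl mice, which carry the same alleles and express Cre recombinase from the Lyve1 locus. There were 2 tumors of each genotype, and each of 2 Chromium runs pooled 1 tumor of each genotype, told apart by an antibody hashtag. The Lyve1 locus is also used by lymphatic endothelium and by other cells with LYVE-1, so that deletion in this model follows the driver and not a single leukocyte type.

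Gm15056 is annotated as a protein-coding gene, and RefSeq lists Defb52 as its synonym, a name of the β-defensin family. β-Defensins are short, secreted, cationic peptides that are held together by disulfide bridges between conserved cysteines, and they are best known from epithelia, where they act on microbes and can also attract leukocytes. Gm36988 is annotated as a sense intronic RNA, that is, an unspliced RNA with no known protein that lies on the same strand inside an intron of another gene. Mononuclear phagocytes, the cells that are most often named here, comprise monocytes that arrive from blood and the macrophages that arise from them or reside in tissue, and CSF1R, the receptor for colony-stimulating factor 1, is the main survival receptor of these cells.

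Gm15056 (ENSMUSG00000082976.10) lies at chr8:20900606-20902627 on the minus strand of mm10. Its 2 annotated transcripts have 549 bases in 4 exons and 314 bases in 3 exons, and their coding exons run from chr8:20900653-20901973. The coding sequence of the longer transcript holds 85 codons before the stop. It is shown for its cysteine codons, which are in capitals. There are 7 of them, at codons 21, 52, 59, 66, 73, 79 and 80, and the last pair is adjacent. The shorter transcript differs near the start of the coding sequence and encodes 88 codons with the same 7 cysteines. No annotated transcript of another gene matched the sequence of Gm15056, so reads shared with a near-identical copy were not found in this annotation.
Gm15056-201 coding sequence: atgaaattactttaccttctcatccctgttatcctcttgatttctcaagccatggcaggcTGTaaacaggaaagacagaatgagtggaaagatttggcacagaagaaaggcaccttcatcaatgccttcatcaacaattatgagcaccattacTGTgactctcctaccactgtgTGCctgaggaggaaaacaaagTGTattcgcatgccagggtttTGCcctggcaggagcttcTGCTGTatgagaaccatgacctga

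Gm36988 (ENSMUSG00000102494.1) is a single exon of 2408 bases at chr2:4316479-4318886 on the plus strand of mm10. It sits inside Frmd4a (chr2:4017717-4614043, plus strand), which encodes a scaffold protein of cell polarity. No exon of Frmd4a overlapped it, and the nearest exons end 15474 bases before it and start 13580 bases after it, so that a read from unspliced Frmd4a RNA and a read from Gm36988 cannot be told apart by position. The last 250 bases (chr2:4318637-4318886) are shown because a 3′ library, primed with oligo(dT), reads the end of a transcript. Capitals mark the 2 runs of 7 A in them, and A makes up 62.5% of the last 40 bases. In addition, 11.7% of the bases of Gm36988, from base 2018 on, matched transcripts of 718 other genes at 90% identity or more over at least 100 bases, so that reads from this end are uncertain between copies.
Gm36988-201 end: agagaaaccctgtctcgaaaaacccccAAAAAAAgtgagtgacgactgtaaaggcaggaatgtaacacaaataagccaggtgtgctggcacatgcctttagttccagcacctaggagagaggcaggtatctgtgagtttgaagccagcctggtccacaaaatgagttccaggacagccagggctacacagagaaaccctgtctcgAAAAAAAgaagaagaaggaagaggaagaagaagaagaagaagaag

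The authors kept 28429 of 53361 barcodes, between 4771 and 8699 cells a tumor, with 27686362 to 56715743 UMIs a tumor and a median of 3721 to 4657 UMIs a cell. Cells were named by marker gates, and 7105 mononuclear phagocytes were split into 1455 C1q macrophages, 4223 Ly6c2 monocytes and 1427 others. A further 4887 cells passed gates of more than one lineage (12.4 to 22.8% of a tumor), and 60 kept barcodes occurred in both runs. Csf1r was at 89.8 and 96.4 CPM (UMIs per 1000000 UMIs) over all kept cells of the Csf1rfl/fl tumors and at 42.7 and 45.4 in the Lyve1CreCsf1rfl/fl tumors. In mononuclear phagocytes, it was at 200.2 and 210.9 against 127.2 and 140.6. With edgeR's quasi-likelihood test, neither difference passed Benjamini-Hochberg adjustment (log2 difference -1.12 ± 0.19 SE, adjusted p = 0.752, and -0.60 ± 0.19, adjusted p = 1.0). Lyve1 itself gave 20 to 43 UMIs a tumor, and between 0 and 2 in mononuclear phagocytes.

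Gm15056 was a transcript of few cells. In all, 921 UMIs were counted in 193 of 28429 kept cells. The level over all kept cells was 5.01 and 4.20 CPM in the Csf1rfl/fl tumors of run 1 and run 2, and 8.52 and 5.82 in the Lyve1CreCsf1rfl/fl tumors of the same runs. Both Lyve1CreCsf1rfl/fl tumors were above both Csf1rfl/fl tumors, but without the highest cell of each tumor the levels were 4.28 and 3.17 against 7.35 and 4.26, and the groups overlapped. The exact Poisson 95% intervals were 4.44 to 5.62 and 3.60 to 4.88 against 7.59 to 9.54 and 4.95 to 6.79, and such intervals cover counting error only. The share of cells with a UMI did not have this order. It was 0.885 and 0.539% in the Csf1rfl/fl tumors and 0.627 and 0.608% in the Lyve1CreCsf1rfl/fl tumors, so that the groups overlapped. After each cell was thinned to 2000 UMIs, the shares were 0.402 and 0.383% against 0.485 and 0.462%, and the groups no longer overlapped. These shares rested on 30 and 23 against 28 and 18 cells, and no interval was computed for them. Thinning left out 873 to 1776 shallower cells a tumor.

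Gm15056 UMIs were concentrated in the mononuclear phagocytes, which were 25.0% of kept cells and held 64.4% of the UMIs (593 UMIs in 98 cells). The level was 8.85 CPM in the Csf1rfl/fl tumor of run 1, 8.95 in that of run 2, 35.9 in the Lyve1CreCsf1rfl/fl tumor of run 1 and 17.8 in that of run 2. The Lyve1CreCsf1rfl/fl tumors were again above both others, by 4.06 times within run 1 and by 1.99 times within run 2. The means were 8.90 ± 0.068 (SD, n = 2) and 26.9 ± 12.8 (SD, n = 2), and the Lyve1CreCsf1rfl/fl tumors lay much farther apart than the Csf1rfl/fl tumors. The exact Poisson intervals were 7.35 to 10.6 and 7.39 to 10.7 for the Csf1rfl/fl tumors and 31.7 to 40.5 and 14.4 to 21.9 for the others.

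The share of phagocytes with a Gm15056 UMI differed less between genotypes than the level. There were 33, 25, 27 and 13 such cells among 2430, 2253, 1450 and 972 phagocytes, in the same order of tumors. These were shares of 1.36, 1.11, 1.86 and 1.34%. The exact binomial 95% intervals of these shares were 0.937 to 1.90, 0.719 to 1.63, 1.23 to 2.70 and 0.714 to 2.28%, and they all overlapped. Thinned to 2000 UMIs a cell, the shares were 0.841, 0.701, 1.41 and 1.09%, from 19, 15, 19 and 10 positive cells. For comparison, T cells held 4 UMIs in 5980 cells, or 0.0669% of cells. Their median depth was 3692.5 UMIs, against 4138 to 5287 in the positive phagocytes. Cells that passed both the T cell and the phagocyte gate are not among these T cells. The part of free RNA in these shares was not tested.

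A handful of cells carried most of the transcript. Over the 4 tumors, 32 phagocytes with 5 or more UMIs held 81.3% of the Gm15056 UMIs in phagocytes. Such cells numbered 7 and 7 in the Csf1rfl/fl tumors and 12 and 6 in the Lyve1CreCsf1rfl/fl tumors, or 0.288 and 0.311% against 0.828 and 0.617% of the phagocytes. The highest single cell held 43 UMIs. The larger part of a tumor's UMIs in phagocytes lay in only 5, 3, 4 and 2 cells, in the order above. Without the single highest cell of each tumor, the levels were 7.18 and 5.68 CPM in the Csf1rfl/fl tumors and 30.2 and 9.505 in the Lyve1CreCsf1rfl/fl tumors, which kept the groups apart. In the Lyve1CreCsf1rfl/fl tumor of run 2, 1 cell therefore made up 46.7% of the value.

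**Figure D1:**
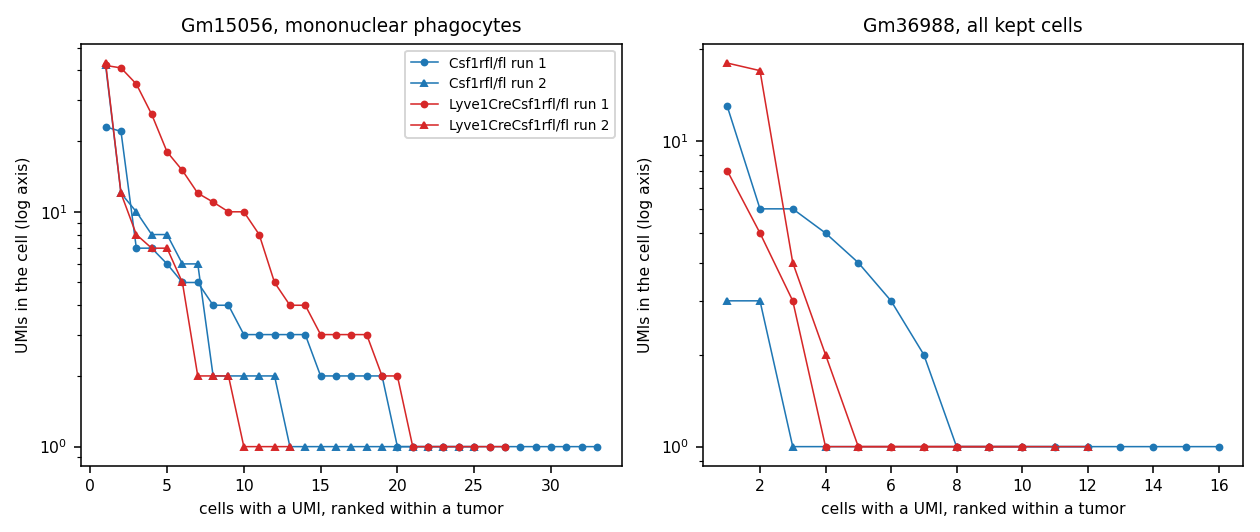
UMIs in each cell with a UMI of the gene (y axis, log scale), with cells ranked within a tumor (x axis), for Gm15056 in mononuclear phagocytes and for Gm36988 in all kept cells, with 1 line for each of 4 tumors. Gm15056 falls from 43 UMIs in the highest cell to 1 over 13 to 33 cells a tumor, and Gm36988 from 18 UMIs to 1 over 10 to 16 cells.

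Within the phagocytes, C1q macrophages had 12.2 and 3.54 CPM of Gm15056 in the Csf1rfl/fl tumors and 57.6 and 89.0 in the Lyve1CreCsf1rfl/fl tumors. The single highest cell held 41 of 64 UMIs in the Lyve1CreCsf1rfl/fl tumor of run 1 and 43 of 60 in that of run 2, and without the highest cell of each tumor the levels were 6.45 and 2.83 against 20.7 and 25.2. Ly6c2 monocytes, which hold the marker of classical monocytes, had 9.12 and 14.8 against 30.6 and 7.22. Here the genotypes overlapped, since the lowest of the 4 values belonged to the Lyve1CreCsf1rfl/fl tumor of run 2. The other phagocytes had 2.78 and 0 against 35.3 and 6.88. The 2.78 and the 6.88 were 7 UMIs in 1 cell each, and without the highest cell of each tumor the levels were 0 and 0 against 13.5 and 0.

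Outside the phagocytes, most Gm15056 UMIs were in cells that passed gates of more than one lineage, which held 300 UMIs (32.6% of all) in 75 cells. They had a UMI in 1.53% of cells at a median depth of 7772 UMIs, against 1.38% of phagocytes at 4908. Their level was 7.29 and 6.16 CPM in the Csf1rfl/fl tumors and 4.02 and 8.12 in the Lyve1CreCsf1rfl/fl tumors, and 293 of the 300 UMIs were in cells whose gates included that of the phagocytes. The other gates were lower. Dendritic cells had 1.66, 0.241, 0.80 and 0.525 CPM, in the order Csf1rfl/fl run 1 and run 2, Lyve1CreCsf1rfl/fl run 1 and run 2. Neutrophils had 0, 0.346, 0.580 and 3.61, the last from 1 cell. Plasmacytoid dendritic cells held 0 UMIs in both Csf1rfl/fl tumors, which allows up to 2.09 and 5.95 CPM at 3 counts, and 1 UMI in each of the others, or 3.17 and 2.33 CPM, so no difference was detectable at this depth. NK cells and the sorted tumor and stromal cells each held 1 UMI. By the mean of the 4 tumors, the order was C1q macrophages (40.6 ± 40.1, SD, n = 4), Ly6c2 monocytes (15.4 ± 10.6), other phagocytes (11.2 ± 16.3) and cells of more than one lineage (6.40 ± 1.78), then plasmacytoid dendritic cells (1.37 ± 1.62), neutrophils (1.13 ± 1.67), cells that passed no gate (0.947 ± 1.89), dendritic cells (0.806 ± 0.611), T cells, NK cells, and tumor and stromal cells (0.134 or less each). Between neighbors in this order, the ranges over tumors separated only at the step from cells of more than one lineage to plasmacytoid dendritic cells.

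**Figure D2:**
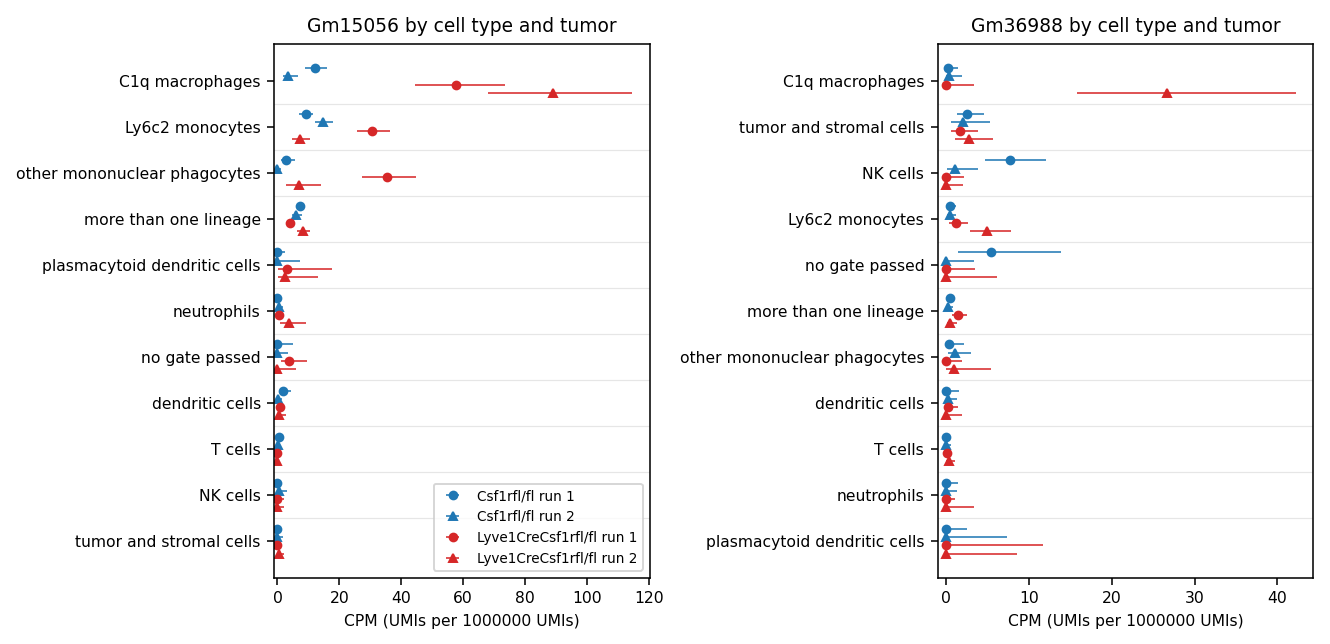
Levels of Gm15056 and Gm36988 in CPM (x axis) by gated cell type (y axis), with 1 point for each of 4 tumors and its exact Poisson 95% interval. By the mean of the tumors, Gm15056 is highest in the 3 phagocyte gates, where C1q macrophages reach 89.0 in 1 tumor, although cells of more than one lineage are above the other phagocytes in 3 of 4 tumors, and Gm36988 stays below 10 except in C1q macrophages of the Lyve1CreCsf1rfl/fl tumor of run 2, at 26.7.

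The barcodes that were not kept by the authors gave a further set of cells from the same tumors, which the choice of the genes did not use. Of these 24932 barcodes, 19.1% had 5% or more mitochondrial UMIs and 34.2% had a leading hashtag less than 3 times the other, and the authors also removed lymphocyte clusters found almost only in the Lyve1CreCsf1rfl/fl tumor of run 2. They held 1606 Gm15056 UMIs in 246 cells, with up to 121 UMIs in 1 cell. Over all of them, the level was 6.17 and 11.0 CPM in the Csf1rfl/fl tumors and 10.1 and 9.05 in the Lyve1CreCsf1rfl/fl tumors, so the genotypes overlapped. In the 2599 phagocytes among them, the level was 11.0 and 17.8 against 26.5 and 36.9, with 6 and 12 against 9 and 8 positive cells. In this sum the Lyve1CreCsf1rfl/fl tumors were above both Csf1rfl/fl tumors, but without the highest cell of each tumor the levels were 5.49 and 13.5 against 13.7 and 21.9, which nearly met. In C1q macrophages among these barcodes, the genotypes overlapped, at 13.4 and 12.8 against 5.12 and 94.1, with 2 to 5 positive cells a tumor. No p is given for this set, in which a doubtful hashtag can also put a cell with the wrong tumor.

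Few genes passed the genotype comparison in its main setting. With edgeR's quasi-likelihood test on UMIs summed per tumor and Benjamini-Hochberg adjustment at 0.05, 0 of 14729 other genes (0%) passed over all kept cells, and 491 had an unadjusted p under 0.05. DESeq2 called 28. In mononuclear phagocytes, 0 of 11425 genes (0%) passed, 245 had an unadjusted p under 0.05, and DESeq2 called 6. Counts were also 0 (0%) in each of C1q macrophages, Ly6c2 monocytes, other phagocytes, dendritic cells, neutrophils, NK cells and T cells, with 82 to 293 genes at an unadjusted p under 0.05, and 12 of 5495 (0.218%) in plasmacytoid dendritic cells. DESeq2 was not run in these cell types. In simulated counts, the edgeR fit recovered 26 of 100 genes with a log2 change of 1 over all kept cells. In mononuclear phagocytes it recovered 22 of 100. At a log2 change of 2 it recovered 93 and 92 of 100. A count of 0 therefore does not exclude differences near 1 on the log2 scale. With the Chromium run as a block, which pairs the tumors, the counts over all kept cells, in NK cells and in other phagocytes stayed at 0, and the others were 7 in mononuclear phagocytes, 54 in C1q macrophages, 5 in Ly6c2 monocytes, 7 in dendritic cells, 40 in plasmacytoid dendritic cells, 1 in neutrophils and 26 in T cells. Without the Lyve1CreCsf1rfl/fl tumor of run 1 or run 2, the count over all kept cells was 133 or 80, and without any 1 tumor the count in mononuclear phagocytes was 19 to 35. Such fits leave 1 tumor in a genotype, which is then assumed to vary like the tumors of the other genotype.

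Because the transcript marked a small subset of phagocytes in every tumor, the other genes of those cells were compared with the rest. This comparison was chosen after the levels had been seen, and it does not use the genotype: UMIs were summed per tumor over the 98 phagocytes with a Gm15056 UMI and the 7007 without, with the tumor as a block. With edgeR's quasi-likelihood test, 422 of 5118 genes (8.25%) differed at a Benjamini-Hochberg adjusted p of 0.05, of which 234 were higher and 188 lower in the cells with Gm15056. Of the 234, 205 were higher in all 4 tumors, and of the 188, 184 were lower in all 4. The count was 187 without the Csf1rfl/fl tumor of run 2, 259 without the Lyve1CreCsf1rfl/fl tumor of run 1 and 254 without that of run 2. Cells with the transcript were somewhat shallower than the others in 3 of 4 tumors and deeper in the Lyve1CreCsf1rfl/fl tumor of run 1, at a median of 4692, 4366, 5287 and 4138 UMIs against 4920, 5101, 4560 and 4904. Their median share of mitochondrial UMIs was lower in all 4 tumors, at 0.862, 0.811, 1.32 and 1.09% against 1.39, 1.70, 1.61 and 1.70%. Scrublet, which calls likely pairs of cells in 1 droplet, marked 18.2, 16.0, 33.3 and 0% of them, against 16.1, 5.12, 16.9 and 4.48% of the others. Over all tumors, 34.7% of them passed the C1q gate, against 20.3%, but in the Lyve1CreCsf1rfl/fl tumor of run 1 the shares were 14.8 against 16.3%. The part of these measures in the differences was not tested.

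The gene with the largest rise was Gpnmb, which encodes a lysosomal glycoprotein of lipid-laden and debris-clearing macrophages. It was at 162, 84.2, 178 and 147 CPM in phagocytes with Gm15056 and at 22.4, 14.6, 16.0 and 20.4 in those without (order of tumors as above), and all 4 tumors separated (log2 difference 2.98 ± 0.26 SE, adjusted p = 8.81e-07, edgeR). Ccl5, a chemokine that draws T cells and monocytes, was at 1957, 2189, 2037 and 1585 against 477, 391, 761 and 509 (1.92 ± 0.15, adjusted p = 5.98e-07, edgeR). Il1rn, the secreted antagonist of the interleukin-1 receptor, was at 715, 2287, 1571 and 1327 against 293, 447, 404 and 408 (1.86 ± 0.15). These ranges did not overlap for any of the 3 genes. Slamf7, a self-binding receptor of activated leukocytes, was at 592, 561, 409 and 534 against 203, 158, 141 and 145 (1.69 ± 0.14). Among genes higher in all 4 tumors, the 10 with the largest rises also held 1110002J07Rik (1.98 ± 0.32), F7, coagulation factor VII (1.86 ± 0.27), Spp1, osteopontin (1.73 ± 0.29), Lipg, endothelial lipase (1.65 ± 0.30), and Il7r, the interleukin-7 receptor chain (1.64 ± 0.20).

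The 10 genes with the largest falls among those at 100 or more CPM and lower in all 4 tumors were led by Klrd1, an NK cell receptor chain, at 8.78, 0, 11.5 and 0 CPM in phagocytes with Gm15056 and at 155, 128, 250 and 132 in those without (-4.69 ± 0.39, adjusted p = 5.98e-07, edgeR). The cells with Gm15056 held 4 Klrd1 UMIs in all, so the size of this fall is uncertain. Klrd1 was the 1 gene tested of 18 T and NK cell markers. Those 18 markers together were at 46.0 to 91.2 CPM in the cells with Gm15056 and at 217.1 to 334.3 in the cells without, where Klrd1 made 6187 of 9551 UMIs. Without Klrd1, the other markers were at 70.2, 91.2, 34.5 and 55.3 CPM with Gm15056 and at 81.9, 89.5, 84.0 and 100.8 without, so that they were lower in 3 of 4 tumors and the larger part of the gap was Klrd1 itself. In the cells with Gm15056, 7 of the 18 were at 0 and 11 were above 0, in a sum of 598523 UMIs. Cd3d, Cd3e, Ncr1 and Klrb1c were among those at 0. They also serve in the gates that keep T and NK cells out of the phagocytes, so low values were partly set by the gates. Trbc1, Trbc2, Gzma and Nkg7 were among those above 0. The part of other cells in the Klrd1 difference was not tested. S100a4, a calcium-binding protein of motile monocytes, was at 1066, 1522, 1588 and 1493 against 2936, 3006, 4133 and 3077 (-1.21 ± 0.12). Fn1, fibronectin, fell by 2.27 ± 0.35 on the log2 scale, and the interferon-induced membrane proteins Ifitm1 and Ifitm6 by 2.07 ± 0.16 and 1.35 ± 0.19. The remaining falls were those of the heat-shock genes Hspa1b (-1.73 ± 0.23) and Hspa1a (-1.17 ± 0.21), the adhesion receptor Adgre5 (-1.49 ± 0.30), cyclin D1, Ccnd1 (-1.33 ± 0.25), and Fdps, an enzyme of isoprenoid synthesis (-1.17 ± 0.30).

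**Figure D3:**
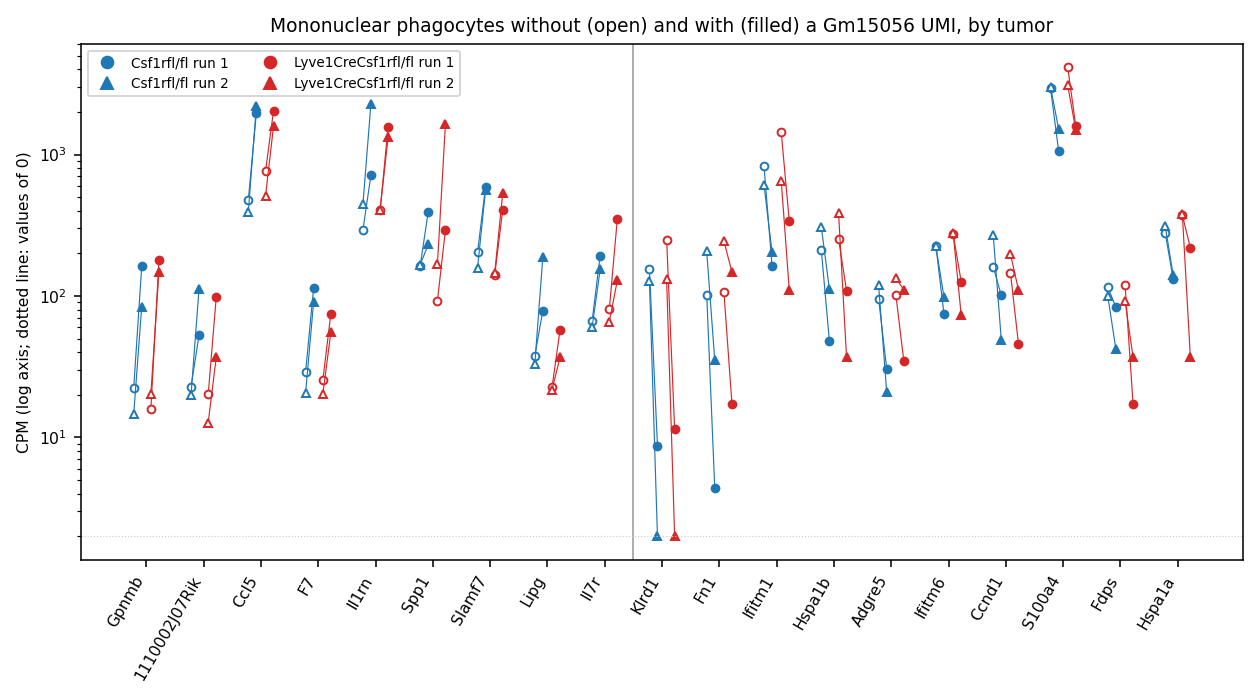
CPM (y axis, log scale, with values of 0 on a dotted line) of 19 named genes (x axis) in mononuclear phagocytes with (filled) and without (open) a Gm15056 UMI, with 1 pair of symbols for each of 4 tumors. The first 9 genes are higher with Gm15056 in all 4 tumors, such as Gpnmb at 84.2 to 178 against 14.6 to 22.4, and the last 10 are lower in all 4.

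Gene lists drawn up after these differences had been seen give an account of the groups, without a test. Over all genes tested, 234 of 5118 were higher and 188 lower. Of 18 tested genes of lysosome and lipid handling, 11 were higher and 0 lower, with a median log2 difference of 0.82 against -0.043 over all genes tested. Among them were Fabp5, a fatty acid carrier (1.55 ± 0.15), the ferritin chains Fth1 (1.19 ± 0.12) and Ftl1 (0.82 ± 0.11), and the cathepsin Ctsb (1.05 ± 0.13). Together the list took 4.95% of UMIs with Gm15056 and 2.42% without. The larger part of both shares was ferritin. By the mean of the tumors, Fth1 was at 24164 CPM with Gm15056 and 10738 without, and Ftl1 at 8283 and 4709. Trem2, a lipid receptor of macrophages, was at -0.46 ± 0.53 and did not pass the test.

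Of 14 chemokines tested, 9 were higher, namely Ccl5, Cxcl9, Cxcl16, Ccl12, Ccl4, Ccl2, Ccl3, Cxcl2 and Ccl7, and 2 were lower, Ccl6 and Ccl9. Ccl4, Ccl3 and Cxcl2 were higher in only 3 of 4 tumors, and Ccl6 was lower in only 3. Cxcl9 is also counted among the interferon-response genes. Of 17 tested NF-κB targets and cytokines, 6 were higher and 0 lower. Inhba, a chain of activin A (2.76 ± 0.38), and Saa3, an acute-phase protein (2.36 ± 0.31), were the largest of them, and both were at 0 in the 13 positive cells of the Lyve1CreCsf1rfl/fl tumor of run 2. Tnf was also called (1.08 ± 0.31) although it was higher in only 2 of 4 tumors. Of 22 tested interferon-response genes, 8 were higher and 0 lower, with Isg15, a ubiquitin-like protein, at 0.60 ± 0.12. This list does not hold the interferon-induced genes Ifitm1 and Ifitm6, which fell, so the count of 0 depends on which genes were listed.

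Genes of resident and alternatively activated macrophages and of monocytes went the other way. Of 12 tested, 6 were lower. These were Fn1, the fractalkine receptor Cx3cr1 (-3.58 ± 0.68), Cd209a, Mef2c, the arginase Arg1 and the chemokine receptor Ccr2 (-0.62 ± 0.16). Cd209a was at 0 in all 4 sums with Gm15056, so its fitted value of -9.91 ± 2.01 is no bound. Cx3cr1 was at 8.78 CPM with Gm15056 in the Csf1rfl/fl tumor of run 1 and at 0 in the other tumors. Arg1 was at 5.75 in the Lyve1CreCsf1rfl/fl tumor of run 1 and at 0 in the other tumors. The size of these 2 falls is therefore uncertain too. Of 17 tested antigen presentation genes, 3 were higher (H2-K1, H2-D1 and B2m, which form MHC class I) and 1 lower (H2-DMa, of the class II pathway), with a median of -0.015. Of 8 tested neutrophil markers, 1 was higher (Clec4d) and 1 lower (Mmp9), and the 9 listed took 756 to 3521 CPM with Gm15056 and 1005 to 1461 without. Of 9 dendritic cell markers, both that were tested were lower (Cd209a and Clec10a), and the 9 together took 18.4 to 171 CPM with Gm15056 and 89.2 to 142 without.

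Phagocytes among the barcodes that were not kept gave a set of cells not used in this comparison, from the same tumors. There, 35 cells with a Gm15056 UMI were set against 2564 without, and 84 of 5249 genes (1.6%) were called, 59 higher and 25 lower (edgeR, Benjamini-Hochberg). The positive cells were deeper in this set, at a median of 9312 UMIs over all tumors against 4736 in the cells without. In the kept phagocytes the medians were 4698 with Gm15056 and 4910 without. The part of depth in the calls of this set was not tested. Of the 234 genes higher in the kept cells, 233 were tested, 218 had the same direction and 54 were called. Of the 188 lower ones, 183 were tested, 173 had the same direction and 13 were called. All 10 named genes with a rise were higher there and 5 were called, Gpnmb (2.05 ± 0.40), Ccl5 (0.98 ± 0.25), Il1rn (1.13 ± 0.18), Slamf7 (1.38 ± 0.22) and Il7r (1.73 ± 0.29). All 10 named genes with a fall were lower there and 0 were called. Klrd1 was at -1.61 ± 0.43 in these barcodes, Fn1 at -0.57 ± 0.34, Ifitm1 at -0.22 ± 0.21 and Adgre5 at -0.24 ± 0.25. Each of these falls was smaller than in the kept cells. Ifitm1 and Adgre5 lay only about as far from 0 as their SE.

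**Figure D4:**
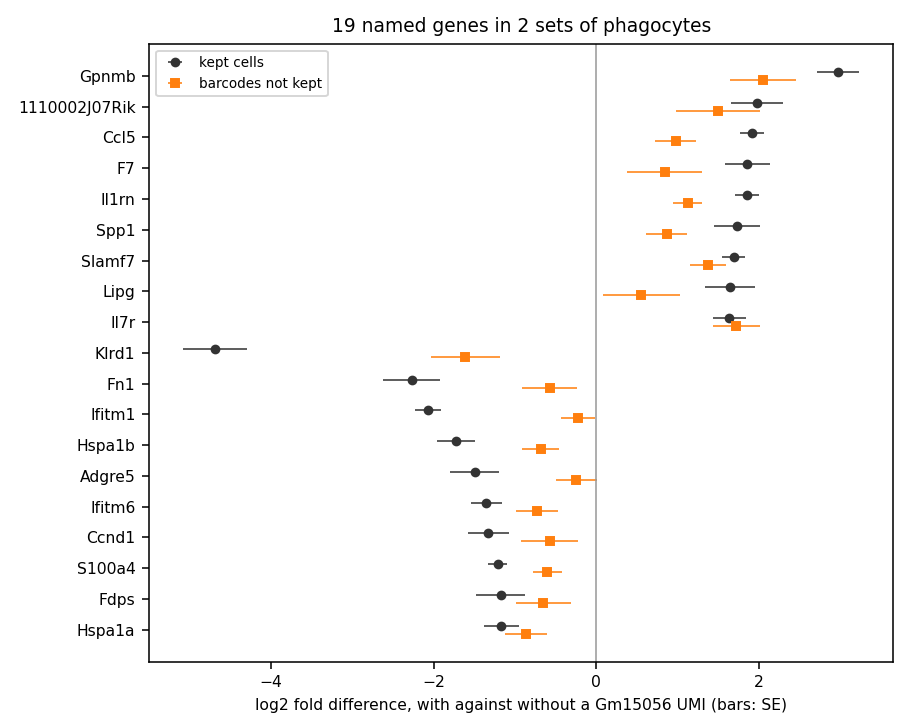
Log2 difference with SE (x axis) of 19 named genes (y axis) between mononuclear phagocytes with and without a Gm15056 UMI, in kept cells (circles) and in barcodes not kept (squares). All 19 genes lie on the same side of 0 in both sets, with Klrd1 at -4.69 in kept cells and -1.61 in barcodes not kept. In barcodes not kept, Ifitm1 and Adgre5 lie only about as far from 0 as their SE.

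The comparison was also made within 2 phagocyte gates, and a difference between gates was not tested. In Ly6c2 monocytes alone, 222 genes were called, and 17 of 19 named genes that were tested were still called with their direction kept. Gpnmb, the gene with the largest rise, did not pass the filter in this gate and was not tested there. In C1q macrophages alone, 16 genes were called, and among the named genes Gpnmb (1.91), Il1rn (1.26) and Il7r (1.15) were still called. This gate held 34 cells with Gm15056, and 18 of 20 named genes kept their direction. Spp1 and Lipg were at -0.54 and -0.0087 there, with adjusted p = 0.723 and 0.998 (edgeR). None of the 20 named genes was called between genotypes in mononuclear phagocytes (0 of 20, with 0 of all genes called). Of the type III interferon genes, Ifnl2 gave 34 UMIs in 3 kept cells, and 32 of them were in 1 phagocyte with Gm15056. Ifnl3 gave 16 UMIs in 1 phagocyte with Gm15056 and 5 UMIs in 1 other cell. These genes were singled out after their values were seen.

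Gm36988 was sparser than Gm15056. It gave 136 UMIs in 50 of 28429 kept cells, of which 34 held 1 UMI, while the 8 cells with 5 or more held 57.4% of the UMIs. The level was 0.846 and 0.393 CPM in the Csf1rfl/fl tumors and 0.643 and 1.77 in the Lyve1CreCsf1rfl/fl tumors, so the genotypes overlapped. The means were 0.620 ± 0.320 (SD, n = 2) and 1.21 ± 0.797 (SD, n = 2). Within runs the direction differed: the Lyve1CreCsf1rfl/fl tumor was at 0.760 times the Csf1rfl/fl tumor in run 1 and at 4.50 times in run 2. The share of cells with a UMI was 0.184 and 0.154% against 0.139 and 0.252%. The highest single cell of a tumor held 13, 3, 8 and 18 UMIs, between 18.8 and 36.7% of that tumor's total.

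In the mononuclear phagocytes, Gm36988 was at 0.363 and 0.545 CPM in the Csf1rfl/fl tumors and at 0.680 and 6.98 in the Lyve1CreCsf1rfl/fl tumors. The value of the last tumor rested on 2 cells of 18 and 17 UMIs, which held 35 of its 36 UMIs. The ratio within runs was 1.87 in run 1, from 5 UMIs in each tumor, and 12.8 in run 2. The 5 UMIs of run 1 were in 4 cells of the Csf1rfl/fl tumor and in 1 cell of the Lyve1CreCsf1rfl/fl tumor. The phagocytes among the barcodes that were not kept had the reverse order, at 6.27 and 1.52 CPM in the Csf1rfl/fl tumors and 0.481 and 0.429 in the others. Over all barcodes not kept, the levels were 0.981 and 0.593 against 0.734 and 0.737.

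By cell type, the highest mean over 4 tumors was that of C1q macrophages (6.83 ± 13.3, SD, n = 4), which was 0.248, 0.354 and 0 in 3 tumors and 26.7 in the Lyve1CreCsf1rfl/fl tumor of run 2. The tumor and stromal cells that had passed the CD45 sort came next among kept cells, at 2.53, 2.05, 1.67 and 2.72 CPM (2.24 ± 0.474). These values rested on 11, 4, 5 and 7 UMIs. The highest single cell held 6 of the 11 in the Csf1rfl/fl tumor of run 1 and 3 of the 4 in that of run 2. Among the barcodes that were not kept, the same gate held 1, 0, 0 and 0 UMIs in 24, 35, 24 and 20 cells, so that this level was not seen there. NK cells (2.19 ± 3.72) held 19 UMIs in 2 cells of the Csf1rfl/fl tumor of run 1, and Ly6c2 monocytes were at 1.73 ± 2.15. Next were cells that passed no gate (1.36 ± 2.72), cells of more than one lineage (0.652 ± 0.529), other phagocytes (0.602 ± 0.494), dendritic cells (0.127 ± 0.147) and T cells (0.111 ± 0.147). Neutrophils and plasmacytoid dendritic cells held no UMI. The ranges over tumors overlapped between all neighbors in this order.

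In the tumor and stromal gate, 19 of 233 cells (8.15%) had a Gm36988 UMI, or 6.82, 4.76, 9.43 and 12.0% by tumor. These cells are much deeper than leukocytes (median 47311 UMIs) and low in Ptprc, the gene of CD45 (0.195 UMIs per 10000). The host gene Frmd4a was found in 18 of the 19 cells with Gm36988 and in 195 of the 214 without. Its level was 91.7, 85.4, 89.3 and 113 CPM in the cells with Gm36988 and 76.6, 93.2, 61.4 and 96.9 in those without. It was higher with Gm36988 in 3 of 4 tumors, in sums of 2 to 6 positive cells a tumor, and the cells with Gm36988 were also deeper (median 61040 against 46717.5 UMIs). Outside this gate, 11 of the 31 cells with Gm36988 had a Frmd4a UMI. Over all kept cells, Frmd4a was at 43.9 and 61.7 CPM in the Csf1rfl/fl tumors and at 35.7 and 51.8 in the others (log2 difference -0.32 ± 0.20, adjusted p = 1.0 with edgeR).

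No cell held both transcripts, among 28429 kept cells or among all 53361 barcodes. The product of both shares gives 0.339 such cells in the kept set and 0.806 over all barcodes, so that at this depth a count of 0 says little.

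The neighbors of both genes on the chromosome were taken by position. Of the 20 annotated genes nearest to Gm15056, 10 on each side, 19 had no UMI in kept cells. Defb33, a β-defensin gene 2883 bases away, was among these 19, and AY761185 gave 3 UMIs. Gm15056 was thus the only gene of this stretch with more than 3 UMIs. Of 21 genes nearest to or overlapping Gm36988, 6 passed the filter and 0 were called between genotypes with edgeR. These were Frmd4a, the splicing factor Prpf18, the selenophosphate synthetase Sephs1, the peroxisomal hydroxylase Phyh, the replication factor Mcm10 and the autophagy receptor Optn, with log2 differences of -0.32 to 0.16. Of 8509 gene models named Gm and a number, 1109 were tested over all kept cells and 0 were called, with 22 at an unadjusted p under 0.05.

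As a description across 43 units of tumor and cell type, which share libraries and depth, the genes whose levels were most like Gm15056 by Pearson's r of log2(CPM + 1) were Prxl2b (0.783), Creg2 (0.775), Oas1a (0.773), Capza2 (0.772) and Ms4a6d (0.768), of 12061 genes compared. For Gm36988 they were Tulp3 (0.566), Cyp4f17 (0.556), Arhgef7 (0.538), Olfr655 (0.527) and Ublcp1 (0.522). In counts this sparse, such values are no finding.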

How the data were processed

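Libraries were made with the Chromium 3′ kit, and per the labels and methods the authors mapped reads with Cell Ranger 6.0.1 to mm10 and used Seurat. The deposited table of raw values holds UMI counts per gene and barcode, and a second holds hashtag counts. The table of SCTransform values, which the authors rounded to whole numbers (a score), served here only to learn which cells were kept, those called singlets with under 5% mitochondrial reads. A deposited file of tumor names linked hashtags to genotypes.

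Cells were assigned to the higher hashtag of their run after centered log-ratio scaling. Gates used summed marker UMIs: at least 3 for most lineages, 2 for Cd3 genes, 10 for tumor and stromal markers, and 150 per 10000 UMIs of S100a8 and S100a9 for neutrophils. Phagocytes were split at 5 UMIs per 10000 of C1q genes or Ly6c2. Gate limits were set after seeing the data, and 304 of 7105 phagocytes lay at the minimum, 4 of them with Gm15056. Scrublet (scanpy 1.11.5) called 23.5 and 10.8% of kept cells of the runs as doublets. These stayed in, and cells of more than one lineage were kept apart.

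UMIs were summed per tumor and tested with edgeR 4.0.16 (R 4.3.3; quasi-likelihood, TMM, filterByExpr, Benjamini-Hochberg at 0.05) or, as an alternative, DESeq2 1.42.0. SEs are those implied by the quasi-likelihood test, the absolute log2 difference over the square root of its F statistic. Scripts were tested on simulated data. Fits between genotypes had no block. The methods put a tumor of each genotype in each run, so that run numbers pair tumors. Deviations of tumors of the same run correlated at 0.240 over 14731 genes. Nothing states whether the cells of a tumor were processed separately before pooling beyond its hashtag stain, so p-values measure the spread between these tumors. The comparison with and without Gm15056 had tumor as a block and kept genes at 20 or more CPM over all phagocytes. Positions and sequences came from GENCODE vM21, and copies from blastn 2.17.0.

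The genes and lists were chosen with earlier results of these data known. Named genes were the pair, Csf1r, Lyve1, the 10 neighbors on each side (Gm36988 also its host gene) that passed the filter, the 5 most alike, and, with and without Gm15056, the 10 largest rises and falls among genes called with 1 direction in all 4 tumors (falls at 100 or more CPM). Genes of lists were named after their values were seen. A gene of the rises and one of the lists are not reported here. Alternatives were all barcodes, no Scrublet doublets, a hashtag margin of 3, thinning, other gates, filters, scaling and tests, a run block and leaving out each tumor.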

Additional observations from a re-analysis of the deposited data

Results flagged for a closer look

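Among the 20 genes named in the comparison of phagocytes with and without a Gm15056 UMI, the heat-shock gene Hspa1a had a log2 ratio of -3.33 in the Lyve1CreCsf1rfl/fl tumor of run 2, far from the other 3 tumors, at -1.16 to -0.77. That tumor had 13 cells with a Gm15056 UMI. Chance marks about 1 in 20 groups of 4 in this way, and 1 of 20 genes was marked.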

How the results depend on the processing

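The level of Gm15056 in mononuclear phagocytes was higher in Lyve1CreCsf1rfl/fl tumors by 1.59 on the log2 scale of the group means, and under a hashtag margin, hashtag counts as deposited, all barcodes, no Scrublet doublets or doubled gate limits it was 1.45 to 1.58, and without 1 tumor each 1.004 to 2.01. Over all kept cells it was 0.64, and it moved to 0.34 with all barcodes, to 0.95 without Scrublet doublets and to 0.34 to 0.89 without 1 tumor each. The log2 ratio of the share of cells with a Gm15056 UMI turned from -0.21 to 0.27 over all kept cells after thinning, and went from 0.37 to 0.70 in phagocytes. For Gm36988 in phagocytes, the level (3.08) was 0.58 to 3.94 without 1 tumor each, with 0.58 without the Lyve1CreCsf1rfl/fl tumor of run 2, and the share turned from -0.034 to 1.26 after thinning, which left 2 cells or fewer a tumor. Over all kept cells, its level was 0.053 to 1.62 (0.96 with all 4 tumors).

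For the genotype comparison over all kept cells (0 calls with edgeR), DESeq2 gave 28 calls, no filter 175, no TMM scaling 79, and leaving out 1 tumor each 0 to 133 (the lone tumor of a genotype is then assumed to vary like the other genotype). In mononuclear phagocytes (also 0), DESeq2 gave 6, no TMM scaling 2 and leaving out 1 tumor each 19 to 35. With the run as a replicate block, which pairs tumors, calls were 0 over all kept cells, 7 in phagocytes, 54 in C1q macrophages, 5 in Ly6c2 monocytes, 7 in dendritic cells, 1 in neutrophils, 40 in plasmacytoid dendritic cells (12 without the block) and 26 in T cells. The block changed no call among neighbors or gene models.

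All alternatives for the comparison with and without Gm15056 were chosen after seeing the data. Its 422 calls became 222 in Ly6c2 monocytes alone, 16 in C1q macrophages alone, 84 in barcodes not kept, 128 without the tumor as a block and 187 to 334 without 1 tumor each. Fewer cells entered the first 3 of these. Spp1 (-0.54) and Lipg (-0.0087) turned direction in C1q macrophages alone, where neither passed the test. Other settings gave 330 to 621 calls. The causes of the moves were not tested.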
